A study of Mus musculus with 4 samples.

Results

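A set of 10 genes of the lipid droplet, the organelle in which cells store triglyceride and sterol esters, was followed in macrophages kept with necrotic fat. They were Plin2 and Plin3 of the droplet coat, Hilpda and G0s2, which inhibit the first lipase, Pnpla2, Abhd5, Lipe and Mgll of the lipolysis chain, and Dgat1 and Dgat2, which make triglyceride. These members were chosen by gene function with their Fat and Con values already known, out of 17013 genes measured, so their differences, intervals and calls come from a fit over all genes, are given as a description, and support nothing. Mature macrophages had been grown with M-CSF from the bone marrow of wild-type mice (genotype WT, age not given in the sources used here) and seeded on porous inserts, through which they touched fat held below. In the fat control medium (Con) this was the middle layer of freeze-thawed abdominal fat, and in the high-fat-containing medium (Fat) it was the top layer. Both media also carried artificial necrotic bone fluid (aNBF), and both cultures lasted 24 h, so no library came from macrophages without necrotic material. PolyA RNA was sequenced in 2 Con and 2 Fat libraries, and the labels do not say whether replicates came from separate mice or cultures. The p-values below then measure only the spread between these samples, which may be technical.

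A lipid droplet is a core of neutral lipid under a single layer of phospholipid, and perilipins coat that layer and limit the access of lipases. Triglyceride is made in the endoplasmic reticulum, where the DGAT enzymes add the last acyl chain to diacylglycerol. It is broken down in order by adipose triglyceride lipase (Pnpla2), hormone-sensitive lipase (Lipe) and monoglyceride lipase (Mgll), with Abhd5 as the co-activator of Pnpla2. Macrophages that take up lipid fill with such droplets and are then called foam cells.

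The libraries held between 33573852 and 40785872 reads, and the 20 most abundant genes took 21.3% to 22.3% of each. Levels are given in CPM, reads scaled to a common library size, and 1 read was worth between 0.0244 and 0.0295 CPM. Between genes, levels are compared in TPM, which also corrects for transcript length. All 8 macrophage markers were detected in every library, at 51.1 to 28720 CPM per gene. Their summed level was 35767 and 33734 CPM in the Con libraries, and 28308 and 26727 CPM in the Fat libraries, replicate 1 first here and in all pairs of values below. Most of each sum came from Lyz2, named after its values were seen, at 28720 and 26819 CPM in Con and 21516 and 20347 CPM in Fat. The means of Cd68 and Itgam, also named for their values, were higher in Fat, and those of the other markers were lower. Cd68 was at 824 CPM in Con and 878 in Fat, and Itgam at 2667 and 2793. Of the 8 markers, Mertk, Fcgr1 and Aif1 were called lower in Fat and the other 5 were not called. In these bulk samples, fewer cells of a type and less RNA per cell cannot be told apart.

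RefSeq promoter sequences of build GRCm38.p6 were found for 8 of the 10 members, not for Dgat1 and Dgat2. Of these, 4 are shown, those of both coat genes, of the inhibitor Hilpda and of its target Pnpla2. Each stretch runs from 250 bases before the annotated start site to 20 bases after it, on the strand of the gene. The 4 stretches are Plin2 at chr4:86670040-86670309 (minus strand), Plin3 at chr17:56290492-56290761 (minus strand), Hilpda at chr6:29272238-29272507 (plus strand) and Pnpla2 at chr7:141454938-141455207 (plus strand). Capitals mark matches, on either strand, to the E-box, hypoxia response core and half-site letters given after the sequences.
Plin2: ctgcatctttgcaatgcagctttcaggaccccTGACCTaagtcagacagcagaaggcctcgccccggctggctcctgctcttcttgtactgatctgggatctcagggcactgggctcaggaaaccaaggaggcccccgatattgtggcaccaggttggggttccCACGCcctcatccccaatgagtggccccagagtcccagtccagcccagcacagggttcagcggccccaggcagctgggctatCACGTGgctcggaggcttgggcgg
Plin3: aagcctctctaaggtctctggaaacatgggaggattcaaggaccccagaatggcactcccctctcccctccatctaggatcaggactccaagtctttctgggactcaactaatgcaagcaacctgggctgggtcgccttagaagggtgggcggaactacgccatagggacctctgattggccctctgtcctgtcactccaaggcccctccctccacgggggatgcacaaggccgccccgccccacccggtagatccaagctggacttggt
Hilpda: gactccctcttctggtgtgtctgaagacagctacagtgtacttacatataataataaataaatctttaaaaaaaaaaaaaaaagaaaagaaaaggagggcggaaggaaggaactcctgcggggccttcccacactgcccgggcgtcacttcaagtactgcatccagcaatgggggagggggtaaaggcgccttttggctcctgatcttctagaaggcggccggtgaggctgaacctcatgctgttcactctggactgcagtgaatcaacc
Pnpla2: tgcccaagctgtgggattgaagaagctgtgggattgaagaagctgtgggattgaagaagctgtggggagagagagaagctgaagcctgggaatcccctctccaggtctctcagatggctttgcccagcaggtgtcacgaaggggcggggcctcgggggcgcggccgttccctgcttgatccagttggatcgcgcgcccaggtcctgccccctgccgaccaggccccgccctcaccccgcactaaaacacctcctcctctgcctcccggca

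The letters searched were the E-box CACGTG, the hypoxia response cores ACGTG and GCGTG, the nuclear receptor half-site AGGTCA and 2 such half-sites in direct repeat with 1 base between them. An E-box of these letters holds ACGTG on both strands, so its matches count for both. Positions below are those of the first base relative to the start site. The Plin2 stretch held AGGTCA (read as TGACCT) at position -218, GCGTG (read as CACGC) at -86 and the E-box at -4. The Plin3 and Pnpla2 windows held none of the letters. The Hilpda window shown held GCGTG only at position 28, past the end of the stretch printed. A second annotated Hilpda start lies downstream, and its window held ACGTG at -43 and GCGTG at -111 and -8. Matches also stood in windows not shown, of members that were not called or not tested. Among them were the E-box at -155 in Lipe and at -44 in Mgll. The same Lipe window held GCGTG at -75, and the same Mgll window held GCGTG at -214 and -111. A second Mgll window held GCGTG 6 times and ACGTG at -158. Others were AGGTCA at -69 and GCGTG at -18 in Abhd5, and GCGTG at -142 in G0s2. Over all 32851 promoter windows of 300 bases, 7.15% held CACGTG, 19.6% ACGTG, 32.4% GCGTG and 16.3% AGGTCA. The direct repeat stood in 0.0396% of the windows and in none of the members' windows. These matches describe the letters of the windows, and no binding was measured.

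Of the 10 members, 9 had enough reads to enter the fit, and those called higher in Fat were 4, namely Plin2, Hilpda, Pnpla2 and Dgat1. Calls were made by limma at an adjusted p under 0.05 over the 12470 genes tested. No member was called lower, and none was lower at an unadjusted p under 0.05 either, with limma, edgeR or DESeq2. Limma with a replicate block put 1 of the 9 members, Lipe, lower at that level. Of all genes tested, 12.4% were lower at that level with limma, 12.7% with edgeR, 9.37% with DESeq2 and 14.7% with the block, so nothing is read from these counts. Over all genes tested, 3.99% were called higher and 5.0% lower, and nothing is read from the members' count, since the members were selected on this contrast. In 4 members both Fat libraries lay above both Con libraries, and in 1, Lipe, both lay below, while 55.6% of all genes tested had groups that did not overlap. The median log2 difference (Fat minus Con) of the 9 members was 0.11, against 0.012 over all genes tested.

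**Figure D1:**
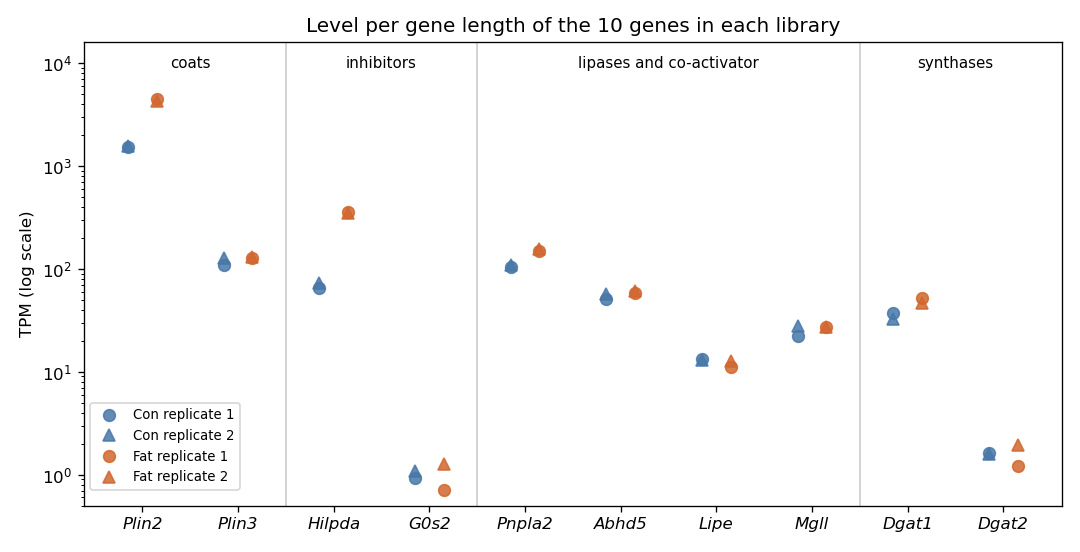
Level of each of the 10 members in TPM (log axis) by gene, in the 2 Con (blue) and 2 Fat (orange) libraries, with circles for replicate 1 and triangles for replicate 2. The Con and Fat points stand apart upward for Plin2, Hilpda, Pnpla2 and Dgat1, and Plin2 is the most abundant member in every library.

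The coat gene Plin2 encodes the perilipin found on droplets of most cell types. It stood at 1324 and 1390.4 CPM in the Con libraries, against 3818 and 3703 CPM in the Fat libraries. Both Fat libraries were far above both Con libraries, and the replicates of a medium lay close together. The group means were 1357 ± 47.2 CPM in Con and 3760.2 ± 81.1 CPM in Fat (SD, n = 2 each). The log2 difference was 1.47 ± 0.08 (SE), a 2.77-fold higher level, and it ranked 19th of 12470 genes tested from the highest. In TPM, Plin2 ranked 60th and 61st of all genes in the Con libraries and 23rd and 26th in the Fat libraries. In the transcript annotation used here, 1.06% of the 75-base stretches of Plin2 were shared with Gm12551, and no such stretch was shared for the other members.

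Plin3 encodes a coat protein that moves between the cytosol and new droplets. Its level was 108 and 130 CPM in the Con libraries, and 126 and 128 CPM in the Fat libraries. Both Fat values fell between the Con values. The log2 difference was 0.10 ± 0.08 (SE), with a 95% interval from -0.10 to 0.30, and Plin3 was not called. In TPM, Plin2 was 14.0 and 12.3 times as abundant as Plin3 in the Con libraries, and 34.7 and 33.2 times in the Fat libraries. Plin2 thus made up 92.5% to 93.3% of the summed transcript level of both coat genes in Con, and 97.1% to 97.2% in Fat.

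Hilpda, an inhibitor of the lipase Pnpla2 that hypoxia and fatty acids induce, showed the widest difference of the members. It was at 32.7 and 37.4 CPM in the Con libraries, against 178 and 174 CPM in the Fat libraries. Each Fat library was therefore well above each Con library. The log2 difference was 2.33 ± 0.07 (SE), a 5.03-fold higher level, from 35.0 ± 3.32 CPM in Con to 176 ± 2.47 CPM in Fat (SD, n = 2 each). It ranked 6th of the genes tested. In TPM, it ranked 2247th and 1952nd of all genes in Con, and 347th and 356th in Fat.

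G0s2 encodes the other inhibitor of Pnpla2 and was close to undetected, with 12 and 16 reads in the Con libraries and 10 and 20 reads in the Fat libraries. It did not pass the filter of 0.5 CPM in 2 libraries and has no call. The Fat values lay on either side of the Con values, and no difference was seen. Fitted without the filter, the log2 difference was -0.072. In TPM, Hilpda was 70.4 and 66.8 times as abundant as G0s2 in Con, and 506 and 273 times in Fat.

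The lipase gene Pnpla2 itself was at 130.0 and 140 CPM in the Con libraries, and at 184 and 192 CPM in the Fat libraries. The groups did not overlap, and the mean rose from 135 ± 6.84 to 188 ± 6.18 CPM (SD, n = 2 each). The log2 difference was 0.48 ± 0.06 (SE), a 1.39-fold higher level. The summed TPM level of Hilpda and G0s2 was 0.626 and 0.667 of the Pnpla2 level in the Con libraries, and 2.39 and 2.24 times it in the Fat libraries. Both Fat ratios were above both Con ratios. In CPM, without the correction for transcript length, the ratios were 0.254 and 0.271 in Con and 0.971 and 0.910 in Fat, so whether inhibitor transcripts outnumbered those of the lipase in Fat rests on that correction. These are ratios of RNA, and protein levels were not measured here.

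**Figure D2:**
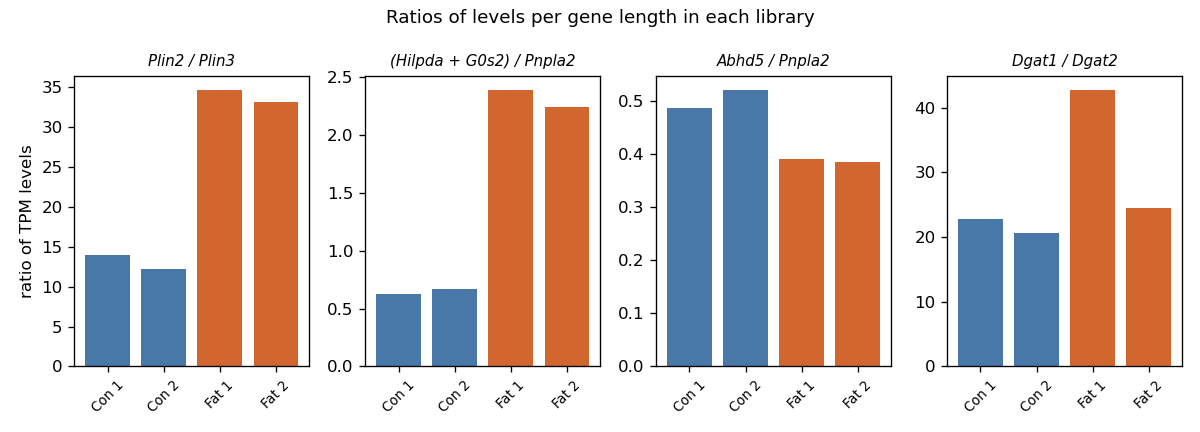
Ratios of transcript levels in TPM between members, 1 panel per ratio, with a bar from 0 for each of the 2 Con (blue) and 2 Fat (orange) libraries. Hilpda plus G0s2 over Pnpla2 is 0.626 and 0.667 in Con and 2.39 and 2.24 in Fat, and Abhd5 over Pnpla2 is lower in both Fat libraries than in both Con libraries.

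Abhd5, the co-activator of Pnpla2, was at 73.5 and 84.4 CPM in Con, and at 83.1 and 85.9 CPM in Fat. The groups overlapped, and the log2 difference was 0.10 ± 0.07 (SE), with a 95% interval from -0.07 to 0.27. The TPM ratio of Abhd5 to Pnpla2 was 0.488 and 0.522 in Con, and 0.391 and 0.385 in Fat. The 2 groups of ratios did not overlap.

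Lipe encodes hormone-sensitive lipase, which cleaves diacylglycerol and also sterol esters. It was at 20.11 and 20.02 CPM in the Con libraries, and at 16.3 and 18.6 CPM in the Fat libraries. Both Fat libraries lay below both Con libraries, the only member with this order, but Lipe was not called. The log2 difference was -0.20 ± 0.09 (SE), with a 95% interval from -0.41 to 0.0018.

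Mgll, which completes lipolysis by splitting monoacylglycerol, was at 46.6 CPM in Con replicate 1 and 60.8 in Con replicate 2, and at 57.5 and 57.6 CPM in the Fat libraries. Its log2 difference was 0.11 ± 0.11 (SE), with a 95% interval from -0.15 to 0.38. Con replicate 1 was the low library. Without Con replicate 1 the difference was -0.079, and without Con replicate 2 it was 0.30. Each of these fits leaves a lone Con library, which is assumed to vary like the 2 Fat libraries. The Fat values of Mgll were nearly equal, so no call is read from these fits. Exons of Abhd5, Lipe and Mgll overlap a gene on the opposite strand, and the sources used here do not say whether counting used strand, so reads of both cannot be told apart.

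Dgat1 and Dgat2 are unrelated enzymes that catalyse the same step. Dgat1 was at 29.96 and 26.5 CPM in the Con libraries, and at 41.1 and 37.4 CPM in the Fat libraries. The groups did not overlap. Its log2 difference was 0.48 ± 0.08 (SE), a 1.39-fold higher level, from 28.2 ± 2.45 to 39.2 ± 2.62 CPM (SD, n = 2 each). Dgat2 was scarce, with 57 and 62 reads in Con and 46 and 80 reads in Fat. The Fat libraries lay on either side of the Con libraries, the log2 difference was -0.10 ± 0.25 (SE), and its 95% interval ran from -0.67 to 0.48. In TPM, Dgat2 made up 4.19% and 4.64% of the summed level of both genes in Con, and 2.28% and 3.91% in Fat, so Dgat1 transcripts predominated in every library.

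**Figure D3:**
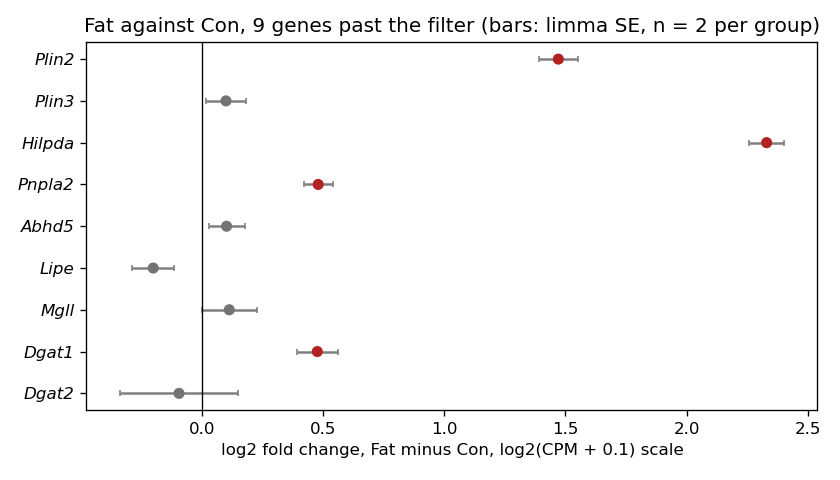
Log2 difference (Fat minus Con) of the 9 members that passed the filter on low values, with bars of 1 SE from limma to each side and red points for called genes. Plin2 (1.47) and Hilpda (2.33) lie far to the right, Pnpla2 and Dgat1 lie at 0.48, and G0s2 is not shown because it did not pass.

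Pnpla2 and Dgat1 were not called by limma without the mean-variance trend, where 31 genes in all were called. With 2 libraries against 2, an exact two-sided permutation test of a single gene cannot give a p below 0.333.

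The genes whose pattern over the 4 libraries was most like that of Plin2 were found by the distance between log2 levels less each gene's mean, among the 9759 genes whose mean reached 5 CPM. The nearest was Ret, a receptor tyrosine kinase (distance 0.164), at 3.18 and 2.93 CPM in Con and 8.60 and 9.12 CPM in Fat. Next was Gpd1, which makes glycerol 3-phosphate (distance 0.187), followed by Dusp5, a phosphatase of ERK (0.277), Klf11, a zinc finger factor (0.285), and Il1rn, the interleukin 1 receptor antagonist (0.293). For Hilpda the nearest was Angptl4, a secreted inhibitor of lipoprotein lipase (distance 0.177), at 25.7 and 25.6 CPM in Con and 133 and 140 CPM in Fat. The next genes were farther from it, with Pdk4 at 0.738, Ret at 0.858, Plin2 itself at 0.864 and Car2 at 0.971. These distances rest on 4 libraries and describe likeness of pattern alone.

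Beyond the 10 members, 41 other genes of droplet coating, formation and lipid turnover were listed by role, and 40 of them were found. Earlier results of these data were known when the list was made, so its calls and p-values are a description. Of these, 30 passed the filter, 5 were called higher in Fat and 0 were called lower (limma), beside 3.99% and 5.0% of all genes tested. Plin4 and Cidec, 2 of the 5, were under the filter in both Con libraries and entered the fit only through their Fat values, so their calls follow in part from the filter and are not counted as support. Of the 28 others, which reached the filter in both media, 3 were called. At an unadjusted p under 0.05, 8 of the 30 were higher and 0 lower with limma, with edgeR and with DESeq2. Over all genes tested, 11.8% were higher and 12.4% lower at that level with limma, 11.4% and 12.7% with edgeR, and 7.71% and 9.37% with DESeq2. The 30 still include Plin4 and Cidec, which entered only through Fat, so nothing is read from this count. The 25 that were not called had log2 differences between -0.14 and 0.38, and the median of the 30 was 0.07. By role, 2 of 3 coat and fusion genes were called higher (Plin4 and Cidec), 1 of 5 droplet formation genes, 2 of 11 glycerolipid synthesis genes, 0 of 5 lipases, 0 of 1 sterol esterification gene and 0 of 5 other droplet-associated genes.

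Of the coat and fusion genes, Plin4, a perilipin abundant in adipocytes, had 1 and 2 reads in Con and 40 and 29 reads in Fat. Cidec, which fuses droplets in adipocytes, had 0 and 2 reads in Con and 67 and 47 reads in Fat. Both stayed far below Plin2 in every library. From pooled reads scaled by library, the ratio of Fat to Con was 21.0 for Plin4 (95% counting interval 6.89 to 104) and 52.0 for Cidec (14.1 to 435). These intervals cover counting error only. The adipocyte perilipin Plin1 had 2 and 1 reads in Con and 5 and 6 in Fat, Plin5 had 1 read in all, and Cidea had 5 reads, all in Fat replicate 2. Cideb passed the filter, with a log2 difference of 0.02.

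Pcyt1a, whose enzyme controls the making of phosphatidylcholine for the droplet surface, was at 183 and 213 CPM in Con and 272 and 248.7 CPM in Fat. It rose by a log2 difference of 0.39 ± 0.08 (SE, adjusted p = 0.0292). In the glycerolipid pathway, Agpat3, which acylates lysophosphatidic acid, was at 73.1 and 77.9 CPM in Con and 106 and 109 CPM in Fat. It rose by 0.51 ± 0.06 on the log2 scale (SE, adjusted p = 0.0045). Lpin2, a phosphatidate phosphatase that yields the diacylglycerol used by the DGAT enzymes, was at 118 and 106 CPM in Con and 149 and 145 CPM in Fat. It rose by 0.39 ± 0.07 on the log2 scale (SE, adjusted p = 0.0145). In all 3 genes, named because they were called, both Fat libraries lay above both Con libraries. This order was common, found in 19 of the 30 other droplet genes tested. Plin4 and Cidec are among the 19, and the filter fixed their order. Without them it was found in 17 of 28. Of all 12470 genes tested, 3664 had it and 3271 had the opposite order.

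None of the other lipases was called. Chosen after their values were seen, because of their role in macrophages, the lysosomal acid lipase gene Lipa had a log2 difference of 0.06 (adjusted p = 0.760) and Nceh1, a neutral cholesterol ester hydrolase, one of 0.22 (adjusted p = 0.0599). Soat1, which makes the cholesterol esters of foam cells, had a log2 difference of 0.16 (adjusted p = 0.153).

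**Figure D4:**
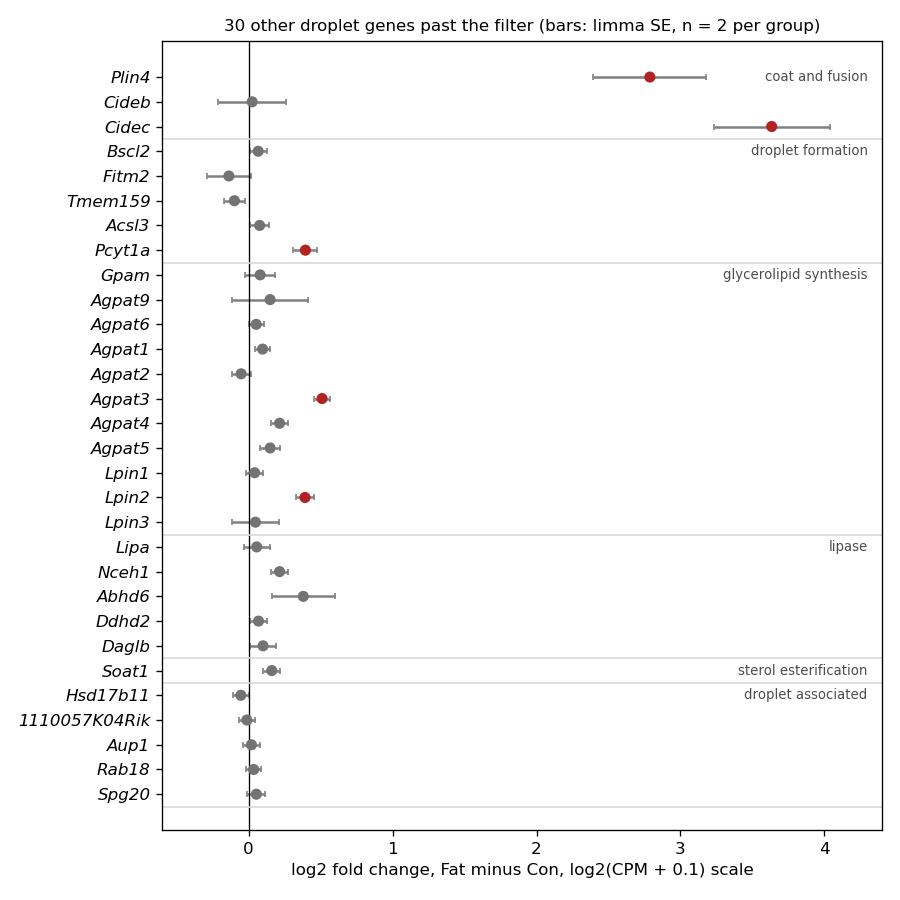
Log2 difference (Fat minus Con) of the 30 other droplet genes that passed the filter, ordered by role, with bars of 1 SE from limma to each side and red points for called genes. The 5 called genes are Plin4 and Cidec, which entered the fit only through Fat, and Pcyt1a, Agpat3 and Lpin2, and the 25 others lie between -0.14 and 0.38.

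Adipocyte transcripts were measured beside these genes, since both media came from adipose tissue. The 13 adipocyte markers, of which Plin1, Plin4, Cidec and Cidea are also among the other droplet genes, summed to 8 and 12 reads in the Con libraries, and to 491 and 283 reads in the Fat libraries. In CPM the sums were 0.236 and 0.320 in Con, and 13.2 and 6.90 in Fat. Adipoq, the defining adipokine gene, was at 0 reads in Con and had 28 and 14 reads in Fat. Of the 13 markers, 8 and 6 had no read in the Con libraries, and 1 and 2 had none in the Fat libraries. Plin4 and Cidec, the markers among the called droplet genes, are part of these sums, so their rise is not independent of the rise of the list.

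The adipocyte markers with the most reads were unequal between the Fat libraries. Among the 7 with at least 9 reads in each Fat library, the CPM level in Fat replicate 1 was 1.51 to 2.20 times that in Fat replicate 2. The markers under this cut, all named here, went both ways. This ratio was 0.915 for Plin1, 1.32 for Cfd and 5.49 for Thrsp. Of the Fat libraries, Cidea had reads only in replicate 2, and Adig and Acvr1c only in replicate 1. For the 4 members called higher, the same ratio lay between 0.955 and 1.10. For the other members it lay between 0.549 and 0.999, with G0s2 and Dgat2 lowest. The mean gain of Plin2 from Con to Fat was 2403 CPM, 246 times the gain of all 13 markers summed, which was 9.75 CPM. Of that sum, 54.1% (5.27 CPM) came from 1 marker, Car3, a carbonic anhydrase named after its values were seen, and 4.48 CPM from the 12 others. The gain was 141 CPM for Hilpda, 53.0 CPM for Pnpla2 and 11.02 CPM for Dgat1, which is 14.5, 5.44 and 1.13 times that sum. The part of adipocyte RNA in these gains was not tested. Genes of fat stroma and vessels (7 genes) summed to 619 and 642 CPM in Con and 518 and 663 CPM in Fat, and of these Dcn was called lower.

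**Figure D5:**
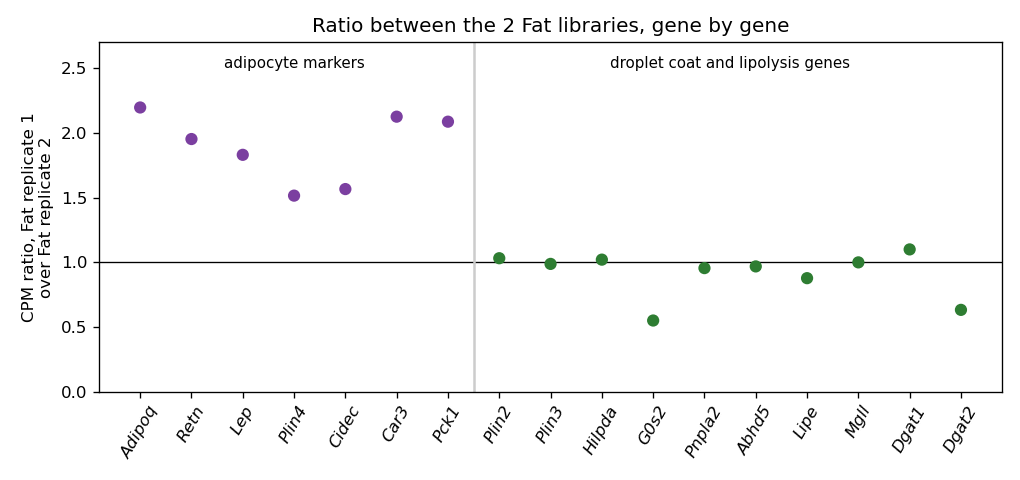
Level in Fat replicate 1 over that in Fat replicate 2, as a ratio of CPM, for the 10 members and for the 7 adipocyte markers with at least 9 reads in each Fat library, each point 1 gene. The markers lie between 1.51 and 2.20, and the members called higher lie between 0.955 and 1.10.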

How the data were processed

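RNA of 4 macrophage libraries (2 Con, 2 Fat) was made into stranded libraries from polyA RNA and sequenced in single reads. The authors deposited CPM values, scaled by library size, and TPM values, scaled also by transcript length, for 17013 genes named by symbol. The library sizes implied by the CPM values were 0.990 to 1.01 times the summed reads, so a small further factor was applied to each library. The submitters' processing notes name GRCm39. The aligner, the counter and the annotation are not given in the sources used here. Samples were grouped by the medium in their labels. The members and lists were chosen with earlier results of these data known.

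Fat was compared with Con by limma (version 3.58.1, under R version 4.3.3) with its mean-variance trend, on log2(CPM + 0.1). The fit held the 12470 genes that reached 0.5 CPM in 2 or more of the 4 libraries. Fold changes are on that scale, which understates the change of low genes. Tests were two-sided, with Benjamini-Hochberg adjustment over all genes tested and calls at an adjusted p under 0.05. Each CPM value was a whole number of reads (100% of values, within 0.1 reads), so edgeR 4.0.16 (quasi-likelihood) and DESeq2 1.42.0 were run on the recovered reads and called 1138 and 1051 genes. A gene at 3 reads, the limit of detection used, stood at 0.0732 to 0.0885 CPM. The scripts were tested on simulated data for this comparison over 12470 genes. There limma found 97% of the genes changed 2-fold and 100% of those changed 4-fold, with 8 false calls. Every simulated gene had the same dispersion, set in advance and not estimated from these data, and libraries were drawn independently. These shares therefore check the scripts and do not give the power of the comparison in these libraries.

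Named are all 10 members, up to 3 other droplet genes per role and direction by smallest adjusted p, and the 5 genes nearest to Plin2 and to Hilpda. Genes named outside this rule are called such in the text or are counted by name in a group of 5 or fewer. Promoters came from a RefSeq table of GRCm38.p6, and shared stretches and overlapping exons from GENCODE vM21. No sequence was read by coordinates from the files, which give none. The settings changed in turn were the pseudocount (1 CPM), the filter (none, or a mean reaching 5 CPM), TPM for CPM, median-ratio scaling, no trend, a block on the replicate number, and each library left out.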

Additional observations from a re-analysis of the deposited data

How the results depend on the processing

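The 4 members called higher numbered 2 (Plin2 and Hilpda) without the mean-variance trend, where 31 of all 12470 genes tested were called. When a library was left out, the log2 differences ran from 1.44 to 1.51 for Plin2 and from 2.23 to 2.43 for Hilpda. In the same fits they ran from 0.43 to 0.53 for Pnpla2 and from 0.39 to 0.56 for Dgat1. Of the other droplet genes, 5 were called higher, but 0 without the trend. With a mean of at least 5 CPM, which removes Plin4 and Cidec, 3 were called higher, beside 927 genes called in either direction of all 9760 tested. Leaving out 1 library gave log2 differences from -0.032 to 0.23 for Plin3, from -0.079 to 0.30 for Mgll and from -0.41 to 0.22 for Dgat2. Plin3 and Mgll turned negative without Con replicate 1, and Dgat2 turned positive without Fat replicate 1. With a replicate block, 4 members and 7 other droplet genes were called higher, and 2520 genes in all. The deviations of libraries with the same number correlated at 0.2 over 12470 genes, and no label says that a number marks a shared animal, batch or day, so the numbers were not taken as pairs. At most 80 reads per library stood behind Dgat2 and at most 20 behind G0s2. A group left with a lone library is assumed to vary like the other. The Fat-minus-Con difference in the ratio of Hilpda plus G0s2 to Pnpla2 was 1.67 in TPM and 0.678 in CPM, which does not correct for transcript length.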
